A study of Mus musculus with 9 samples.

Results

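Egfl7 and 8 genes that make and load microRNAs were followed in CD31+ cells of mouse bone marrow (BM) that the labels call endothelial cells (ECs). Egfl7 is the host gene of miR-126, the endothelial microRNA around which the study was built, and the other genes were Drosha, Dgcr8, Xpo5, Dicer1, Tarbp2, Ago1, Ago2 and Ago3. They were chosen by name. The 9 names took up 10 of the 46078 rows of the gene count table, because Dgcr8 stood in 2 rows, and 1 of these, with an identifier of its own, held 0 counts in all 9 libraries. The other 9 rows all passed the filter on low counts that left 15937 genes for testing.

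The cells came from wild type mice of strain B6, with no treatment, and their age was not given in the sources used here. Both fractions lacked CD45 and Ter119 and carried CD31 on the surface, and they were separated by Sca-1 into 4 Sca-1+ libraries (numbered 7, 13, 15 and 19 at the end of their labels) and 5 Sca-1- libraries (numbered 8, 10, 14, 16 and 22). Titles of Sca-1+ library 13 and Sca-1- libraries 14 and 22 carry the mark CD452 and that of Sca-1- library 10 its digits alone, those of the others wt, and that of Sca-1+ library 7 none of these, so both fractions hold libraries with and without the mark. The titles of Sca-1+ library 15 and Sca-1- library 16 carry the same number before the mark wt, and what it stands for is not stated. Nothing says that each library came from a separate animal, so p-values measure the spread between these libraries. Poly(A) RNA was amplified from 2 ng of total RNA with a low-input kit and sequenced, and the libraries held between 21581653 and 25959818 counted reads.

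Sorting was checked on 3 genes. Ly6a, which encodes Sca-1, had a mean of 1133 ± 187 CPM (SD, n = 4; read counts per 1000000, after scaling of the library sizes) in Sca-1+ libraries and 0.678 ± 0.524 CPM (SD, n = 5) in Sca-1- libraries, with no overlap. Pecam1, which encodes CD31, was detected in every library, between 334 and 1760 CPM. Ptprc, which encodes CD45, had 0.843 ± 1.2 and 28.9 ± 14.1 CPM. Of 19 endothelial markers, 17 were higher in Sca-1+ libraries and 0 were lower, and their summed level was between 16585 and 19813 CPM there against 1511 to 4450 CPM in Sca-1- libraries. All 16 megakaryocyte and platelet markers were lower in Sca-1+ libraries, with sums of 45.2 to 94.4 CPM against 26773 to 116567 CPM. Of the general leukocyte markers, 9 of 10 were lower in Sca-1+ libraries (219 to 275 against 2971 to 5517 CPM), as were 6 of 10 erythroid markers (98.1 to 188 against 644 to 2238 CPM), 2 of 10 neutrophil markers (9.32 to 763 against 137 to 773 CPM) and 11 of 12 proliferation genes (182 to 238 against 366 to 1103 CPM). The neutrophil genes S100a8, S100a9 and Ngp stood at 167, 182 and 239 CPM in Sca-1+ library 19 and at most at 2.35 CPM in the other Sca-1+ libraries. Mpo, another neutrophil marker, was highest among Sca-1+ libraries in library 7, at 35.1 CPM. Of the smooth muscle and pericyte markers, 7 of 10 were higher in Sca-1+ libraries (574 to 1582 against 20.2 to 79.2 CPM), and of 6 B and plasma cell markers tested 1 was higher and 3 were lower (581 to 1022 against 272 to 496 CPM), with Ms4a1 at 0 in every Sca-1+ library. In the Sca-1- libraries the megakaryocyte sum was thus above the endothelial sum in every library, which goes against the label of endothelial cells, and that fraction is called here by its sort. The fractions differed in the RNA of several cell types. In bulk RNA, fewer cells of a type and less RNA per cell cannot be told apart, and the part of this mixture in the results on the 9 genes was not tested.

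MicroRNAs start as hairpins in longer transcripts. In the nucleus the Microprocessor, made of the RNase Drosha and its RNA-binding partner Dgcr8, cuts the hairpin out, and Exportin-5, encoded by Xpo5, carries it to the cytoplasm. There Dicer, encoded by Dicer1, working with the RNA-binding protein encoded by Tarbp2, removes the loop, and an Argonaute protein takes up a strand and uses it to find messenger RNAs with a matching seed. miR-126 is made from an intron of Egfl7, a gene for a protein that endothelial cells secrete, and it is known for keeping vessels intact and for modulating the response of endothelium to growth factors.

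The hairpin and the mature strand are shown because they fix which bases of the Egfl7 locus a read count could represent. Both are RefSeq sequences on GRCm38.p6, at chr2:26591357-26591429 and chr2:26591402-26591423 on the plus strand, the strand of Egfl7. Capitals mark the mature strand in the hairpin and the seed, bases 2 to 8, in the mature strand.
Mir126a hairpin: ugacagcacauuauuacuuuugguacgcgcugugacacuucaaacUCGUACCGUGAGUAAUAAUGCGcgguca
mmu-miR-126a-3p: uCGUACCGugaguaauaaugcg

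In the GENCODE M21 annotation of GRCm38, which is the mm10 build named for these files, Egfl7 (ENSMUSG00000026921) spans chr2:26580014-26593120 on the plus strand and has 19 transcripts. The hairpin lies within an intron in 8 of them. In the protein-coding transcript Egfl7-201 it is intron 7 of a transcript with 10 exons, 600 bases from 26591064 to 26591663. In 1 transcript that retains most of this intron the hairpin is part of exon 4, and 10 transcripts do not reach over it. The libraries were made from poly(A) RNA, so counts on Egfl7 measure the host transcript, not the mature microRNA. Rows of microRNA genes took 0.0127 to 0.021% of the counts of a library.

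Egfl7 was far higher in Sca-1+ libraries. Its level was 1314, 705, 1187 and 632 CPM in Sca-1+ libraries 7, 13, 15 and 19. It was 39, 10.3, 28.6, 37 and 57.7 CPM in Sca-1- libraries 8, 10, 14, 16 and 22. Every Sca-1+ library lay above every Sca-1- library, and library 10 was the lowest of all. The means were 960 ± 341 CPM (SD, n = 4) and 34.5 ± 17.2 CPM (SD, n = 5). The log2 fold change of Sca-1+ over Sca-1- was 4.80 ± 0.49 (SE), a 27.8-fold difference, with a 95% confidence interval of 3.70 to 5.89 on the log2 scale (edgeR quasi-likelihood test, adjusted p = 6.1e-05). The mean level of Egfl7 stood at percentile 99.4 of all genes tested in Sca-1+ libraries and at percentile 70.5 in Sca-1- libraries, and its log2 fold change ranked 434 from the top. Egfl7 shared exon bases with Agpat2 (64 bases) and Mir126b (58 bases) on the opposite strand and with Gm20532 (264 bases) and Mir126a (73 bases) on its own strand, so reads on those bases are uncertain.

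Reads on the hairpin could not be assigned, since all 73 bases of Mir126a lie in the exon of the Egfl7 transcript that retains the intron. The row of Mir126a held 0 counts in all 9 libraries, which therefore does not measure it. The row of Mir126b, a microRNA gene annotated on the minus strand over 58 bases of the same place, held 202, 53, 35 and 17 counts in Sca-1+ libraries 7, 13, 15 and 19 and 6, 1, 0, 0 and 5 counts in Sca-1- libraries 8, 10, 14, 16 and 22. The fractions did not overlap, and library 7 held most of the counts. The log2 fold change was 4.39 ± 1.16 (SE, adjusted p = 0.011 by edgeR), and without library 7 it was 3.27 with an adjusted p of 0.051. The kit does not mark the strand of the RNA and the strand setting of the counting is not given in the sources used here, so these reads cannot be told apart from reads of the retained Egfl7 intron.

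**Figure D1:**
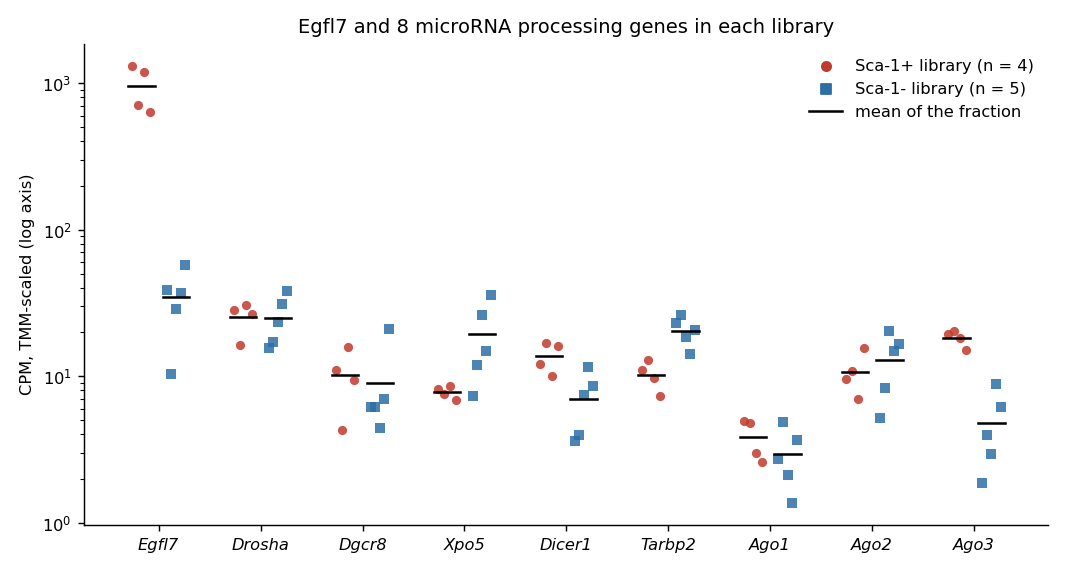
Level of Egfl7 and the 8 processing genes in each library, in TMM-scaled CPM on a log axis; each circle is a Sca-1+ library (n = 4), each square a Sca-1- library (n = 5), and the lines are the means. Egfl7 reached 632 to 1314 CPM in Sca-1+ libraries and at most 57.7 CPM in Sca-1- libraries, and the processing genes lay between 1.36 and 38.2 CPM throughout.

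Because the fractions differed in endothelial RNA as a whole, Egfl7 was set against endothelial markers in the same library, and the outcome depended on the reference. Relative to the summed CPM of the 19 markers, Egfl7 made up 6.63, 4.09, 6.44 and 3.81% in Sca-1+ libraries 7, 13, 15 and 19, and 1.26, 0.232, 1.52, 2.45 and 3.48% in Sca-1- libraries 8, 10, 14, 16 and 22. The mean log2 ratio was higher in Sca-1+ libraries by 1.96, a 3.9-fold difference (exact permutation test over all assignments of the 9 libraries to 4 and 5, two-sided, p = 0.024; higher in 4 of 4 Sca-1+ libraries than in any Sca-1- library). Without any 1 of the Sca-1+ libraries p was 0.054 by the same exact test. Relative to Pecam1 alone the difference was 3.89 (exact permutation p = 0.0079, the smallest the design allows). Relative to the mean log2 CPM of the markers it was 0.61 (exact permutation p = 0.095). Relative to Cdh5, which encodes VE-cadherin, the adhesion molecule of endothelial junctions, the direction turned: Egfl7 was 5.24, 3, 4 and 2.3 times the Cdh5 level in Sca-1+ libraries and 5.28, 4.23, 5.3, 2.81 and 7.87 times in Sca-1- libraries, a difference of -0.48 on the log2 scale (exact permutation p = 0.22).

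Cdh5 itself had 264 ± 27.2 CPM (SD, n = 4) in Sca-1+ and 7.14 ± 3.92 CPM (SD, n = 5) in Sca-1- libraries. Pecam1 and Esam, a junction protein that platelets also carry, were the only 2 of the 19 markers without a call. Together they supplied 12.7 to 17.7% of the marker sum in Sca-1+ libraries. In Sca-1- libraries 8, 10, 14, 16 and 22 they supplied 81.6, 91.6, 67.8, 42.2 and 48.8%. The megakaryocyte integrin gene Itga2b stood at 18340, 23281, 8190, 5539 and 6606 CPM in the same libraries and at 9.87 to 11.7 CPM in Sca-1+ libraries. The part of megakaryocyte RNA in the ratio to the summed markers was not tested.

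**Figure D2:**
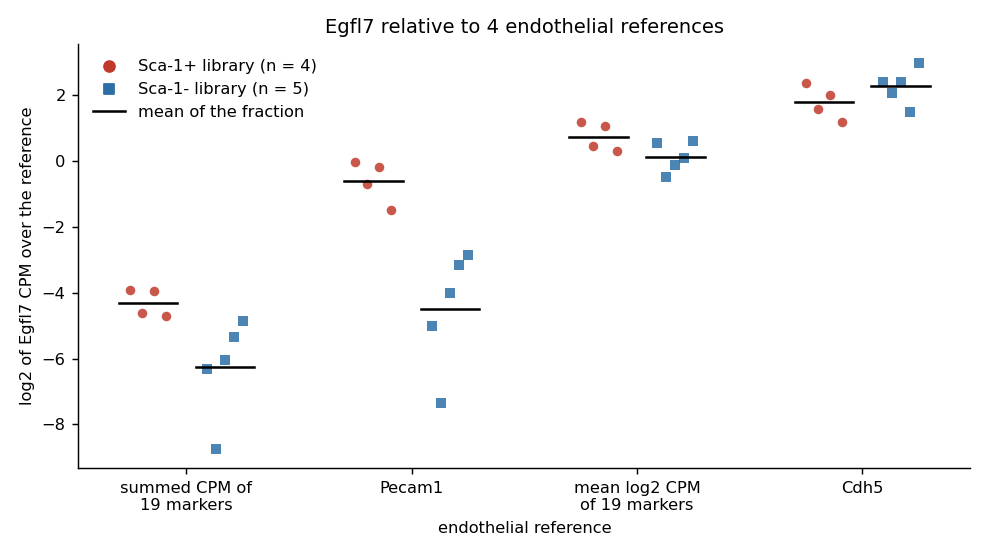
Log2 of the Egfl7 level over 4 endothelial references in each library; circles are Sca-1+ libraries (n = 4), squares Sca-1- libraries (n = 5), and lines the means. The fractions separated with the summed markers (a difference of 1.96) and with Pecam1 (3.89), and overlapped with the mean log2 CPM of the markers (0.61) and with Cdh5 (-0.48).

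The 5 genes whose log2 CPM followed Egfl7 most closely over the 9 libraries, of 9859 genes with an average log2 CPM of at least 3, were Sh3bp5, Gimap4 and Atp9a, each with a Pearson r of 0.995, and Lamb1 and Papss1, each with 0.994. Sh3bp5 encodes a binding partner of an SH3 domain, Gimap4 a small GTPase, Atp9a a membrane ATPase, Lamb1 a laminin chain of basement membranes and Papss1 an enzyme of sulfate activation. Their log2 fold changes were 4.09, 4.56, 3.72, 3.55 and 1.33. The points share the difference between the fractions, and with the mean of each fraction removed r was 0.93 to 0.94. These correlations describe 9 libraries and carry no test. Both values of r come from the same libraries by which the genes were picked, so the second is no separate check.

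Of the 9 genes, 4 differed between the fractions at an adjusted p under 0.05, 2 of them higher (Egfl7 and Ago3) and 2 lower (Tarbp2 and Xpo5) in Sca-1+ libraries. Over all genes tested, 44.8% passed the same threshold, 23.3% higher and 21.4% lower, or 3721 and 3416 genes. With library size as the only scaling, which moved the median of all genes from 0.07 to 0.43, 4158 genes were higher and 2431 lower, and among the 9 genes 2 were higher and 0 lower. Among the 8 processing genes 3 passed, and their median log2 fold change was 0.10, against 0.07 over all genes tested. In 3 of the 9 genes (Egfl7, Ago3 and Tarbp2) the fractions did not overlap, which held for 43.6% of all genes, 24.8% with every Sca-1+ library above and 18.8% with every one below.

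**Figure D3:**
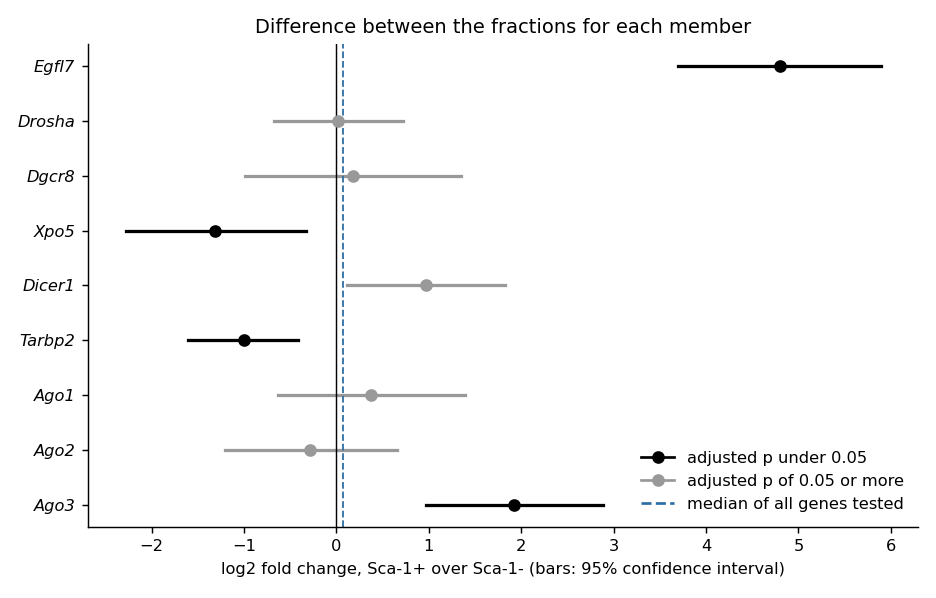
Log2 fold change of Sca-1+ over Sca-1- for each of the 9 genes, with bars for the 95% confidence interval; black marks an adjusted p under 0.05, grey one of 0.05 or more, and the dashed line the median of all genes tested (0.07). Egfl7 (4.80) and Ago3 (1.92) lay above 0, Tarbp2 (-1.0) and Xpo5 (-1.31) below it, and the intervals of Drosha, Dgcr8, Ago1 and Ago2 spanned 0.

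The Microprocessor genes did not pass the test. Drosha had 28.5, 16.4, 30.7 and 26.5 CPM in Sca-1+ libraries and 15.6, 17.2, 23.5, 30.9 and 38.2 CPM in Sca-1- libraries, and the fractions overlapped over most of their range. Its log2 fold change was 0.02, with an interval of -0.68 to 0.72 (adjusted p = 0.96 by edgeR), and its sign turned under other scalings, to -0.04 with RLE size factors. Dgcr8 had 11.1, 4.26, 15.8 and 9.45 CPM against 6.19, 6.14, 4.41, 6.97 and 21 CPM. Its lowest Sca-1+ library was number 13, its highest library of all was Sca-1- library 22, and its log2 fold change was 0.18, with an interval of -0.99 to 1.35 (adjusted p = 0.8 by edgeR). The ratio of Drosha to Dgcr8, chosen after values were seen, was 2.56, 3.85, 1.94 and 2.8 in Sca-1+ libraries and 2.51, 2.8, 5.34, 4.43 and 1.82 in Sca-1- libraries, a mean log2 difference of -0.21 that is given with no test. Dgcr8 shares 825 exon bases with Trmt2a on the opposite strand and 327 with Gm49776 on its own, and Drosha shares 72 with a microRNA gene, so their reads are uncertain there. Of 11 further Microprocessor partners, 1 was higher in Sca-1+ libraries and 0 were lower, 9.09% against 44.8% of all genes. It was Ddx5, an RNA helicase, with 497 ± 97 CPM in the 4 Sca-1+ and 314 ± 75.2 CPM in the 5 Sca-1- libraries (SD) and a log2 fold change of 0.66 (adjusted p = 0.046 by edgeR), which passed 0.05 in 4 of 20 alternatives.

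Xpo5 was lower in Sca-1+ libraries, though less firmly than the other calls. It had 8.11, 7.53, 8.63 and 6.89 CPM in Sca-1+ libraries and 7.27, 12, 26.3, 14.8 and 35.9 CPM in Sca-1- libraries. Sca-1- library 8 lay within the Sca-1+ range and the other 4 lay above it. The log2 fold change was -1.31 ± 0.44 (SE, adjusted p = 0.034 by edgeR). Leaving out any 1 of the 4 Sca-1+ libraries raised the adjusted p to between 0.068 and 0.081, and leaving out Sca-1- library 22 gave a log2 fold change of -0.96 (adjusted p = 0.076). With libraries 15 and 16, whose titles share a number, as a block the call was also lost (-1.29, adjusted p = 0.05). Xpo5 passed 0.05 in 10 of 20 alternatives.

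Of the 4 nuclear export partners, 3 were lower in Sca-1+ libraries and 0 higher, where 21.4% of all genes were lower. Rcc1, which charges the GTPase Ran, had a log2 fold change of -2.02 (adjusted p = 0.0052), Xpo1, the exporter of proteins and several RNA classes, one of -1.29 (adjusted p = 0.0084), and Rangap1, which discharges Ran, one of -1.07 (adjusted p = 0.018). Rangap1 had an adjusted p of 0.057 without Sca-1+ library 13, and with library size as the only scaling Rangap1 (adjusted p = 0.2) and Xpo1 (adjusted p = 0.06) were not called. Ran itself had 125 ± 9.9 CPM in Sca-1+ (SD, n = 4) and 220 ± 84.1 CPM in Sca-1- libraries (SD, n = 5). Its log2 fold change was -0.82 (adjusted p = 0.052 by edgeR), and it passed 0.05 in 6 of 20 alternatives. These genes serve nuclear transport and mitosis in general, and the proliferation genes, 11 of 12 of which were lower in Sca-1+ libraries, moved with them. The part of cell division in the export genes was not tested.

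Of the 2 genes of the dicing step, Tarbp2 was lower in Sca-1+ libraries and Dicer1 did not pass the test. Tarbp2 had 11, 12.8, 9.7 and 7.36 CPM in Sca-1+ libraries and 23.1, 26.1, 18.6, 14.1 and 20.5 CPM in Sca-1- libraries. Every Sca-1+ library lay below every Sca-1- library, and the means were 10.2 ± 2.28 CPM (SD, n = 4) and 20.5 ± 4.54 CPM (SD, n = 5). The log2 fold change was -1.0 ± 0.27 (SE, adjusted p = 0.012 by edgeR). With library size as the only scaling it was -0.54 (adjusted p = 0.19). Dicer1 had 12.1, 16.8, 10.1 and 16 CPM in Sca-1+ libraries and 3.6, 3.98, 7.47, 11.5 and 8.51 CPM in Sca-1- libraries. Sca-1- library 16 reached into the Sca-1+ range and the other 4 lay below it. The log2 fold change was 0.97 ± 0.39 (SE), with an interval of 0.11 to 1.83 and an adjusted p of 0.065 by edgeR, and the adjusted p was 0.029 with DESeq2 and 0.044 with limma voom. Without library 16 it was 0.027, with a log2 fold change of 1.21.

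The ratio of Dicer1 to Tarbp2, also chosen after values were seen, was 1.1, 1.31, 1.04 and 2.17 in Sca-1+ libraries and 0.156, 0.152, 0.402, 0.814 and 0.416 in Sca-1- libraries. The fractions did not overlap, and the mean log2 difference was 2.08. It is given with no test, since the pair was picked for its values. Of the 3 Dicer partners and RNA editing genes, 0 passed the test in edgeR, against 44.8% of all genes. Adarb1, an enzyme that edits adenosines in paired RNA, had a log2 fold change of 1.01 (adjusted p = 0.053), its relative Adar 0.69 (adjusted p = 0.076) and Prkra, another partner of Dicer, 0.16 (adjusted p = 0.61).

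Among the Argonaute members, Ago3 passed the test and the other two did not. It had 19.4, 20.2, 18.1 and 15 CPM in Sca-1+ libraries and 1.86, 3.98, 2.93, 8.9 and 6.19 CPM in Sca-1- libraries. The fractions did not overlap, with means of 18.2 ± 2.27 CPM (SD, n = 4) and 4.77 ± 2.81 CPM (SD, n = 5), and the log2 fold change was 1.92 ± 0.43 (SE, adjusted p = 0.0046 by edgeR). It was past 0.05 under all 20 alternatives, between 1.64 and 2.39. Ago2, the Argonaute that can cut its target, had 9.51, 10.8, 7.01 and 15.6 CPM against 5.17, 8.24, 20.2, 14.8 and 16.5 CPM, with a log2 fold change of -0.28 and an interval of -1.21 to 0.66 (adjusted p = 0.62 by edgeR). Ago1 had 4.94, 4.8, 2.97 and 2.59 CPM against 2.7, 4.89, 2.12, 1.36 and 3.66 CPM, with 0.38 and an interval of -0.63 to 1.39 (adjusted p = 0.52 by edgeR). In both genes the fractions overlapped. Ago2 shares 219 exon bases with Chrac1 on the opposite strand, where its reads are uncertain.

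The ratio of Ago3 to Ago2, chosen after values were seen, was 2.04, 1.88, 2.59 and 0.963 in Sca-1+ libraries and 0.36, 0.483, 0.145, 0.6 and 0.376 in Sca-1- libraries. Every Sca-1+ library was above every Sca-1- library, and library 19 was nearest to them. The mean log2 difference was 2.30, given with no test for the same reason. Per kb of exon, with Ago4 added, Ago3 supplied 40.6 ± 3.4% of Argonaute CPM in Sca-1+ libraries (SD, n = 4) and 17.4 ± 7.85% in Sca-1- libraries (SD, n = 5). Ago2 supplied 28.8 ± 11.6% and 55.1 ± 14.3%, ranging from 20 to 45.5% and from 40 to 76.7%. Ago1 supplied 17.2 ± 3.9% and 25.2 ± 14.9%, and Ago4 13.4 ± 8.31% and 2.32 ± 3.69%. The Ago3 share was between 37.1 and 43.8% in all Sca-1+ libraries and at most 30.4% in Sca-1- libraries, while the Ago2 share overlapped between the fractions. Ago4 had 4.09, 1.67, 3.73 and 0.736 CPM in Sca-1+ libraries, and 0, 0.279, 0, 0.0332 and 1.3 CPM in Sca-1- libraries (log2 fold change 2.95, adjusted p = 0.079 by edgeR).

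**Figure D4:**
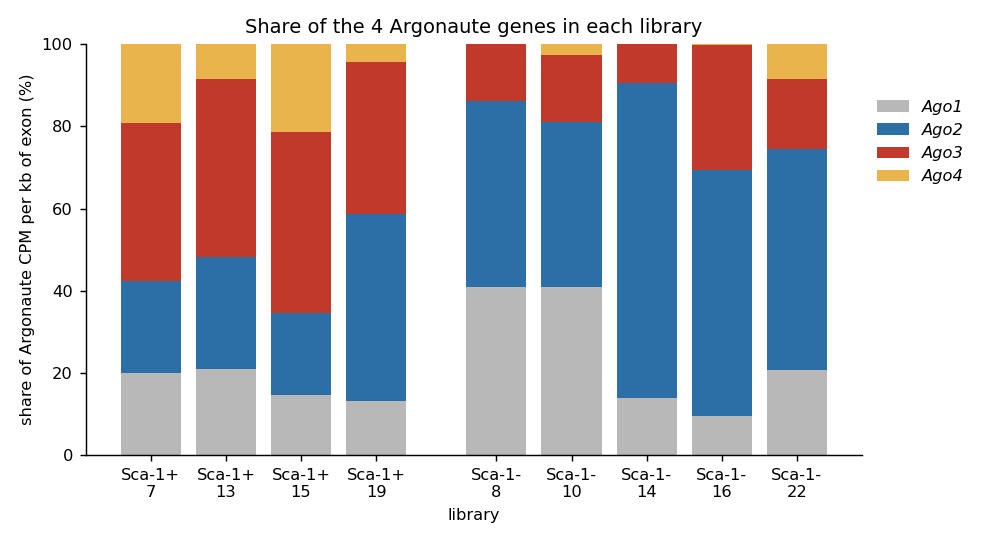
Share of Ago1, Ago2, Ago3 and Ago4 in the summed CPM per kb of exon of the 4 genes, 1 bar for each library. Ago3 took 37.1 to 43.8% in Sca-1+ libraries and 9.4 to 30.4% in Sca-1- libraries.

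Per kb of exon, Egfl7 was the highest of the 9 genes in both fractions, with 268 ± 95.3 CPM per kb in Sca-1+ libraries (SD, n = 4) and 9.64 ± 4.8 CPM per kb in Sca-1- libraries (SD, n = 5). In Sca-1+ libraries Drosha followed with 4.3 ± 1.06 CPM per kb and then Tarbp2 with 2.24 ± 0.501. Dgcr8 (1.32 ± 0.618), Xpo5 (1.14 ± 0.109) and Ago3 (1.1 ± 0.137) lay within their SD of each other, then Dicer1 (0.82 ± 0.19) and Ago2 (0.764 ± 0.257) within theirs, and Ago1 was last with 0.471 ± 0.15. In Sca-1- libraries the order was Tarbp2 (4.5 ± 0.999), Drosha (4.23 ± 1.6), Xpo5 (2.81 ± 1.7), Dgcr8 (1.16 ± 0.885) and Ago2 (0.926 ± 0.439), in which each neighbour lay within an SD of the next. Dicer1 (0.419 ± 0.196), Ago1 (0.363 ± 0.169) and Ago3 (0.288 ± 0.169) came last and lay within their SD of each other. Ago3 had the highest mean of the Argonaute members in Sca-1+ libraries and the lowest in Sca-1- libraries. Exon lengths come from all annotated transcripts of a gene, so these levels depend on the annotation.

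Of 16 genes of the RNA-induced silencing complex beside the members, 4 were higher and 2 lower in Sca-1+ libraries, 37.5% against 44.8% of all genes. Wtip, a LIM protein that binds Argonaute, rose by 3.98 on the log2 scale (adjusted p = 2.6e-04), and Hspa8, a chaperone, by 1.53 (adjusted p = 0.0038). Fkbp4, a cochaperone of Hsp90, fell by 1.32 (adjusted p = 0.0027) and Fmr1, an RNA-binding regulator of translation, by 0.57 (adjusted p = 0.044), Fmr1 passing 0.05 in 11 of 20 alternatives. Of 23 deadenylation and decapping genes, which carry out silencing on the messenger RNA, 2 were higher and 3 lower, 21.7% against 44.8% of all genes. Cnot6l, a deadenylase, had a log2 fold change of 1.50 (adjusted p = 0.029), with 0.053, 0.067, 0.06 and 0.064 without Sca-1+ library 13, 15 or 19 or Sca-1- library 10. Cnot6l passed in 14 of 20 alternatives. Dcp1b, a decapping factor, had 0.65 (adjusted p = 0.037) and passed in 7 of 20 alternatives. Pabpc1, which binds the poly(A) tail, had -1.17 (adjusted p = 9.2e-04). Rqcd1, also called Cnot9, a subunit of the deadenylase complex, had -1.01 (adjusted p = 0.016, and 0.052 without Sca-1+ library 15) and passed in 16 of 20 alternatives.

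Of 10 genes of microRNA tailing and turnover tested, 2 were higher and 1 was lower in Sca-1+ libraries, 30% against 44.8% of all genes. Zcchc11, also called Tut4, which adds uridines to precursors, had a log2 fold change of 1.02 (adjusted p = 0.015) and passed in 18 of 20 alternatives. Snd1, a nuclease of edited RNA, had -0.62 (adjusted p = 0.028) and passed in 11 of 20 alternatives. Lin28a and Lin28b, which block the processing of let-7, were at 0 counts in all 9 libraries. The 6 lists of pathway genes together held 67 genes tested, of which 9 were higher and 9 lower, 26.9% against 44.8% of all genes, with a median log2 fold change of -0.01. The split moved with the scaling, to 14 higher and 2 lower with library size only and to 7 and 13 with RLE size factors. Leaving out Sca-1+ library 13 or Sca-1+ library 15 reduced the 18 calls to 11, and DESeq2 gave 29 (12 higher and 17 lower).

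The upstream side of Egfl7 was described with 6 transcription factors proposed to control it or miR-126. Egfl7 has 3 start sites in the RefSeq table of GRCm38.p6, and the 300 bases around the middle one, chr2:26583615-26583914 on the plus strand with the start at 26583865, are shown because the transcript Egfl7-201 starts there. Capitals mark the cores GGAA (TTCC on the other strand), which Ets factors bind, and GATA (TATC on the other strand), which Gata factors bind.
Egfl7 promoter: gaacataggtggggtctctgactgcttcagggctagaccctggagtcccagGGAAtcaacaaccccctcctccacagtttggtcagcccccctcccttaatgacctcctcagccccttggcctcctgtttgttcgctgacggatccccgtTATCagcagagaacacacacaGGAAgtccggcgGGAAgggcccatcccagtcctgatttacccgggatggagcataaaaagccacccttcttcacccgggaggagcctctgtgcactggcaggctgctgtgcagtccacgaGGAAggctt

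GGAA or TTCC stood at 4 places in this window, and 96% of the 32851 promoters of the same length held it. The longer form AGGAAG or CTTCCT, which contains that core, stood at 2 places and was held by 35.4% of promoters. GATA or TATC stood at 1 place (57.9% of promoters), and the longer TGATAA or TTATCA covered the same place (9.05% of promoters). In the windows around the first and last start sites, not shown, TGATAA or TTATCA stood at 0 places. AGGAAG or CTTCCT stood there at 3 and 0 places. These matches describe the sequence and are not binding sites.

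Of the 6 factors, 4 were higher and 2 lower in Sca-1+ libraries, where 44.8% of all genes were called. Ets2 had 275, 205, 288 and 259 CPM in Sca-1+ libraries and 11, 4.75, 7.59, 19.5 and 20.2 CPM in Sca-1- libraries, a log2 fold change of 4.34 (adjusted p = 5.5e-05), the nearest of the 6 to that of Egfl7. Erg, an Ets factor of endothelium that is also among the 19 endothelial markers, had 3.21 (adjusted p = 6.6e-04), Klf2, a factor induced by flow, 2.83 (adjusted p = 1.1e-04), and Ets1 2.33 (adjusted p = 5.3e-04). The fractions did not overlap in these 4 genes. Gata2, a factor of endothelium and of megakaryocytes and their progenitors, had between 99.4 and 167 CPM in Sca-1+ libraries and 928, 1825, 511, 631 and 330 CPM in Sca-1- libraries, with no overlap and a log2 fold change of -2.76 (adjusted p = 0.0014). Fli1, an Ets factor shared by the same cells, had -1.61 (adjusted p = 0.01), and its fractions overlapped. The megakaryocyte markers given above moved the same way, and their part in the levels of Gata2 and Fli1 was not tested.

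**Figure D5:**
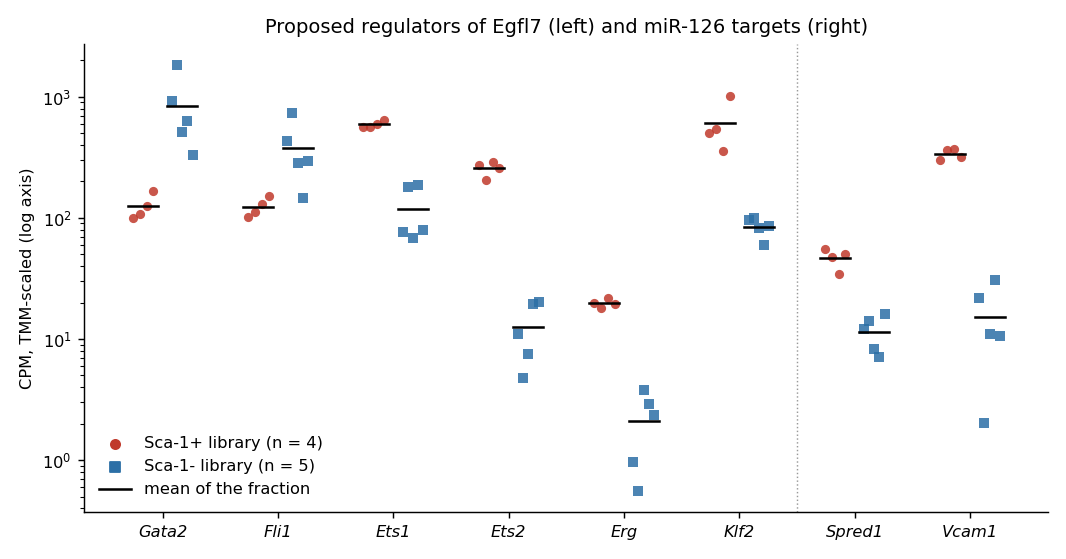
Level of the 6 proposed regulators of Egfl7 and of the miR-126 targets Spred1 and Vcam1 in each library, in TMM-scaled CPM on a log axis; circles are Sca-1+ libraries (n = 4), squares Sca-1- libraries (n = 5), and lines the means. Gata2 and Fli1 had higher means in Sca-1- libraries, and the other 6 genes were higher in every Sca-1+ library than in any Sca-1- library.

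The study names Spred1, an inhibitor of growth factor signalling to the kinase Erk, and Vcam1, an adhesion molecule for leukocytes, as targets of miR-126. Both transcripts were higher in Sca-1+ libraries, the fraction with the higher Egfl7. Spred1 had 55.8, 47.6, 34.4 and 50.4 CPM in Sca-1+ libraries and 12.2, 14, 8.23, 7.11 and 16.1 CPM in Sca-1- libraries, with a log2 fold change of 2.03 ± 0.29 (SE, adjusted p = 3.4e-04 by edgeR). Vcam1 had 301, 361, 374 and 319 CPM against 21.9, 2.02, 11, 30.6 and 10.6 CPM, with a log2 fold change of 4.47 ± 0.62 (SE, adjusted p = 3.1e-04 by edgeR). In both genes every Sca-1+ library lay above every Sca-1- library.

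The 7 bases that pair with the seed of mmu-miR-126a-3p are CGGTACG on the messenger RNA. They occur once in the 928-base 3′ untranslated region of Vcam1-201, starting at base 626 of that region, and the 30 bases around them, chr3:116110234-116110263 on the minus strand, are shown with the match in capitals.
Vcam1 site: catggtactgtaCGGTACGgggacctgttt

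These 7 letters were not found in the annotated 3′ untranslated regions of Spred1. They were rare in the annotation: 39 of 21039 genes with such a region (0.185%) held them. Of the 30 of these genes that were tested, 6 were higher in Sca-1+ libraries (20%) and 9 lower (30%), with a median log2 fold change of -0.19, while of 13242 tested genes with any such region 24.4% were higher and 21.8% lower, with a median of 0.08. The match was searched without conservation, so it describes sequence only. Shorter or shifted seed matches, and matches to the other arm of the hairpin, were not searched in Spred1 or any other gene.

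Around Egfl7 on chromosome 2, the neighbouring gene Agpat2, an enzyme of phospholipid synthesis, had 9.19 ± 0.849 CPM in Sca-1+ libraries (SD, n = 4) and 22.9 ± 6.92 CPM in Sca-1- libraries (SD, n = 5), with no overlap and a log2 fold change of -1.32 (adjusted p = 0.0032 by edgeR), the opposite direction to Egfl7. Egfl8, the relative of Egfl7 elsewhere in the genome, had 41.7, 25.5, 29.4 and 18.5 CPM against 1.38, 2.02, 0.467, 1.03 and 0.366 CPM, a log2 fold change of 4.79 ± 0.53 (SE, adjusted p = 9.8e-05 by edgeR), close to that of Egfl7 at far lower counts.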

How the data were processed

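Poly(A) RNA was sequenced from 9 libraries of CD31+ BM cells labelled as ECs, 4 Sca-1+ and 5 Sca-1-, grouped by the labels. The authors deposited raw read counts for each gene in 1 table, and per the labels reads were aligned with STAR and counted with featureCounts on mm10. The column names point to alignments of read 1. Versions, annotation release and strand setting are not given in the sources used here. Every column was used. Reads have no molecular identifiers, so the limits set by depth (a floor of 3 counts is 0.0996 to 0.209 CPM) cover counting error alone.

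The count model was edgeR 4.0.16 under R 4.3.3: filterByExpr at its defaults (minimum count 10, minimum total count 15), TMM normalization, and the quasi-likelihood F-test of Sca-1+ against Sca-1-, two-sided, adjusted by Benjamini-Hochberg across 15937 genes and a threshold of 0.05. "Higher", "lower", "rose" and "fell" refer to this test. SEs come from the F statistic, and the biological coefficient of variation was 0.549. Levels are CPM on TMM-scaled library sizes (factors 1.12 to 1.22 in Sca-1+ and 0.581 to 1.16 in Sca-1- libraries), with a prior count of 2 for log2 CPM. Egfl7 relative to endothelial markers was compared with an exact permutation test, whose smallest p is 0.0079. The fit was first tested on simulated data in which few genes differed, as many upward as downward. That did not check the scaling where many genes differ, as they did here. No 2 libraries were copies of each other.

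The members and gene lists were chosen with earlier results of these data known. All 207 list symbols matched the table, some by an older name. In lists of more than 6 genes, the text names at most the 2 highest and 2 lowest log2 fold changes among genes past the threshold with an average log2 CPM of at least 3. It also names the check genes of the sort and the 5 genes most like Egfl7. Esam, Cdh5, Itga2b, Ago4, Lin28a, Lin28b, Ms4a1, S100a8, S100a9, Ngp, Mpo and the genes that share exons with members were named after their values were seen. Positions and exon lengths came from GENCODE M21 on GRCm38 (45229 of 46078 identifiers matched), and sequences from RefSeq on GRCm38.p6 and, for the target site, from the GENCODE M21 transcripts. Alternatives used other normalizations and filters, robust dispersion, limma 3.58.1 voom, DESeq2 1.42.0, blocks, and each library left out. The 3 ratios among processing genes, and the values with a library left out of them, were added after seeing the data and carry no test. Plots were drawn with matplotlib 3.10.9.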

Additional observations from a re-analysis of the deposited data

How the results depend on the processing

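Egfl7, Ago3 and Egfl8 kept their direction and an adjusted p under 0.05 in all 20 alternatives, Egfl7 between 4.50 and 5.08. With library size as the only scaling, 2 members were called (Egfl7 and Ago3) in place of 4. The number of pathway genes called was 29 with DESeq2. Leaving out each library gave 5957 to 6969 genes, 3 to 5 members and 11 to 24 pathway genes (11 without Sca-1+ library 13 or 15). Drosha turned to -0.04 with RLE size factors, -0.02 with upper quartile scaling and -0.04 with DESeq2, and lay between -0.18 and 0.22 with a library left out. Dgcr8 lay between -0.11 and 0.77. Egfl7 relative to endothelial markers was -0.48 against Cdh5 alone and 0.61 against the mean log2 CPM, and 1.34 to 2.32 with a library left out. The cause of these shifts was not tested.

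Replicate numbers are not shared between the fractions. As a replicate block, libraries were joined by neighbouring end numbers (7 with 8, 13 with 14, 15 with 16). Deviations from the fraction means correlated at 0.147, 0.148 and 0.042. Each of these libraries correlated best with its neighbour in number among the libraries of the other fraction. Not every pair was over 0.1, so the main tests did not pair the libraries. The pair under 0.1 was 15 with 16, whose titles share a number, so this check does not settle whether the libraries were paired. With this block on 6 libraries 4340 genes, 2 members and 5 pathway genes were called. The same 6 libraries with no replicate block gave 5360 genes, 2 members and 9 pathway genes, against 7137, 4 and 18 on all 9 libraries. Libraries 15 and 16, whose titles share a number, as a block among all 9 gave 6847 genes and 3 members, Xpo5 losing its call (adjusted p = 0.05).

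Running numbers in the labels do not overlap between the fractions, so anything that follows them cannot be told apart from the fraction. Mature microRNAs are not measured by these libraries. The interval of Ago1, at 1.36 to 4.94 CPM, was wide (-0.63 to 1.39), and so was that of Dgcr8 at 4.26 to 21 CPM (-0.99 to 1.35).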

Other observations

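Other microRNA host genes moved in both directions. Of 29 tested, 7 were higher and 9 lower in Sca-1+ libraries, 55.2% against 44.8% of all genes, with a median log2 fold change of -0.33. Among hosts with an average log2 CPM of at least 3, the largest changes were those of Copz2 (1.96, adjusted p = 0.0026 by edgeR) and Pank3 (1.86, adjusted p = 0.015) among the higher, and R3hdm1 (-2.10, adjusted p = 0.0014) and Smc4 (-2.04, adjusted p = 1.4e-04) among the lower. RefSeq places 85 mature microRNAs, at 90 positions, inside 30 host genes including Egfl7, and 11 seeds were shared by microRNAs of more than 1 host. For 2 of these seeds, chosen after their values were seen, hosts were called in opposite directions, and for the other 9 they were not. The mature sequences are shown because the capitals, bases 2 to 8, are identical within each set.
mmu-miR-152-3p: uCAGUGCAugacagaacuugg
mmu-miR-148b-3p: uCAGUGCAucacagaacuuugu
mmu-miR-15a-5p: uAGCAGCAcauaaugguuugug
mmu-miR-15b-5p: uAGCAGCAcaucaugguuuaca
mmu-miR-16-5p: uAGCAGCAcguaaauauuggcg

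Copz2, a subunit of the coat of Golgi vesicles and the host of miR-152 (chr11:96850439-96850459, plus strand), had 109, 133, 93.5 and 112 CPM in Sca-1+ libraries and 54.2, 14.2, 13.2, 30.7 and 31.4 CPM in Sca-1- libraries. Its relative Copz1, the host of miR-148b (chr15:103285185-103285206, plus strand), had 111, 112, 113 and 82.9 CPM against 316, 311, 301, 244 and 258 CPM, a log2 fold change of -1.45 (adjusted p = 2.6e-04 by edgeR). Neither gene overlapped between the fractions.

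Dleu2, a noncoding host of miR-15a and a copy of miR-16 (chr14:61632075-61632096 and chr14:61631936-61631957, minus strand), had 39, 51.2, 39.1 and 49.5 CPM in Sca-1+ libraries and 15.3, 18.8, 14.2, 20.5 and 14.2 CPM in Sca-1- libraries, a log2 fold change of 1.43 (adjusted p = 3.7e-04 by edgeR). Smc4, a condensin subunit of mitotic chromosomes and the host of miR-15b and the other copy of miR-16 (chr3:69009775-69009796 and chr3:69009918-69009939, plus strand), had 46.2, 33.2, 30.5 and 53.4 CPM against 133, 202, 151, 158 and 196 CPM. Neither gene overlapped between the fractions. The mature miR-16 is the same molecule from both hosts, and its amount was not measured here. The proliferation genes moved with Smc4, and their part in its level was not tested.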
